A study of Mus musculus with 8 samples.

Results

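The major histocompatibility complex of the mouse, the H2 complex, lies on chromosome 17, and its methylated regions were followed in the epithelium of the small intestine from the embryo to the adult. The domain was taken as 33900000 to 37400000 in mm9, from the class I K end to the M end. Peaks of all 8 libraries were merged wherever they shared at least 1 bp, and 797 of the 475861 merged regions overlapped the domain. The first region inside it began at 33901220 and the nearest one outside ended at 33891446, while the last inside ended at 37382723 and the next began at 37455509. Membership used position only, so the values below were free to differ from those elsewhere.

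The H2 complex holds the genes by which cells show peptides to T cells. Class I molecules such as H2-K1 and H2-D1 present peptides from inside the cell to cytotoxic T cells. Class II molecules, with chains such as H2-Aa, H2-Ab1 and H2-Eb1, present peptides to helper T cells. The class III stretch between them codes for complement components (C4b, C2, Cfb) and for the cytokines Tnf, Lta and Ltb. Beyond H2-D1 lie the Q, T and M groups of class I genes, arrays of closely related copies. Epithelial cells of the intestine express class I molecules and can express class II, and methylation of CpG-rich promoters is generally found at silent genes. In the RefSeq gene order of GRCm38.p6, counted over protein-coding genes from H2-K1 as gene 1, Psmb9, Tap1, Psmb8 and Tap2, which cut and transport class I peptides, were genes 12, 13, 14 and 15. H2-Ab1, H2-Aa and H2-Eb1 were genes 17, 18 and 19, C4b was gene 38, Tnf gene 78, H2-D1 gene 83 and H2-T23 gene 117. Peaks were not assigned to genes, because the positions of that table belong to another build, and regions are given below by mm9 position and by distance from the start of the domain. Sequence of the Q, T and M copies is so alike that tags there may have been placed on the wrong copy or not counted. The treatment of such tags is not given in the sources used here.

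The libraries formed 4 groups of 2 biological replicates, all from mice of a mixed C57BL/6 and CD1 background. They were epithelium of embryos at E12.5 and at E14.5 (days of gestation), sorted as EpCAM-positive cells without CD31, CD45 or DAPI stain, and intestinal stem cells (ISC) and enterocytes from adult males aged 2 months, recorded as P60. The adults carried the Lgr5EGFP-Cre-ERT allele, and ISC were sorted for high EGFP from it, while enterocytes were sorted with the markers used for the embryos. Per the labels' protocols villi and crypts were both collected, and which fraction gave the enterocytes is not stated. Whether the embryos carried the allele, and their sex, is not given in the sources used here. Each library was an MBD pull-down, in which a methyl-CpG-binding protein captures densely methylated DNA, and the authors called peaks in each library alone with no control library. Peak lists say nothing of RNA, so the cell types were not checked against marker genes. Depth was 55237390 and 55442400 tags at E12.5 and 31438314 to 43343543 in the other 6 libraries. The E12.5 lists were the shortest, with 84990 and 100314 peaks against 164157 to 338262 in the others.

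Methylated regions lay closer together in the H2 complex than on the autosomes at large. The domain held 228 regions per Mb, against 195 per Mb on the other autosomal sequence and 211 per Mb on the rest of chromosome 17. Regions covered 17.7% of the domain and 13.3% of the other autosomal sequence. A region had a median length of 586 bp in the domain and 560 bp elsewhere on the autosomes, and the 90th percentile of length was 1505 bp in the domain, against 1203 bp elsewhere. Of the 797 regions, 52 (6.52%) were called in all 8 libraries, against 5.16% of all regions, and 216 (27.1%) in a single library, against 28.1%. The regions called everywhere were long, with a median of 1512 bp, and those called in a single library had a median of 349 bp. Over all regions these medians were 1225 and 347 bp. A merged region spans the peaks of all its libraries, so its length can only grow as libraries are added.

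Each library showed the higher density. In the E12.5 replicates the domain had 47.7 and 49.7 peaks per Mb, against 41.5 and 35.1 on the other autosomal sequence. At E14.5 it had 160.0 and 181 per Mb, against 130.1 and 139.5. In ISC the values were 96.0 and 147 per Mb, against 84.1 and 117, and in enterocytes 78.3 and 118 per Mb, against 67.9 and 96.0. All 8 libraries were therefore on the same side. The log2 ratio of the domain to the other autosomal sequence averaged 0.30 ± 0.11 (SD, n = 8; exact two-sided sign-flip permutation p = 0.00781, adjusted p = 0.0117 over 3 measures, Benjamini-Hochberg), higher in 8 of 8 libraries. The smallest p this test can give is 0.00781. It treats libraries as independent although they share a genome, so it speaks of these libraries and not of other domains. Against the rest of chromosome 17 the mean log2 ratio of density was 0.17 ± 0.10 (SD, n = 8; exact permutation, adjusted p = 0.0234), also higher in 8 of 8.

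The peaks themselves were little different in strength. Peak levels are given as RPM, the tags of a peak or region per 1000000 tags of the library. The median RPM of a peak in the domain was 0.776 in E12.5 replicate 2, the lowest library, against 0.758 over its other autosomal peaks. It was 1.38 in enterocyte replicate 1, the highest, against 1.29 over its other autosomal peaks. The mean log2 ratio was 0.09 ± 0.06 (SD, n = 8; exact two-sided sign-flip permutation p = 0.0156, adjusted p = 0.0156), higher in 7 of 8 libraries and equal in E12.5 replicate 1. The median width was smallest in E14.5 replicate 2 (294 bp) and greatest in enterocyte replicate 1 (886.5 bp), and the mean log2 ratio to the other autosomal peaks was 0.07 ± 0.04 (SD, n = 8; exact permutation p = 0.00781, adjusted p = 0.0117), higher in 8 of 8. Against the rest of chromosome 17 neither excess was seen, with a mean log2 ratio of -0.01 ± 0.04 for tags (adjusted p = 0.562, exact permutation, n = 8) and 0.01 ± 0.03 for width (adjusted p = 0.434, exact permutation, n = 8). Widths moved with the fragment shift that the peak caller estimated per library, which was 57 bp in E14.5 replicate 2, 164 bp in enterocyte replicate 1 and 97 to 126 bp in the other 6.

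**Figure D1:**
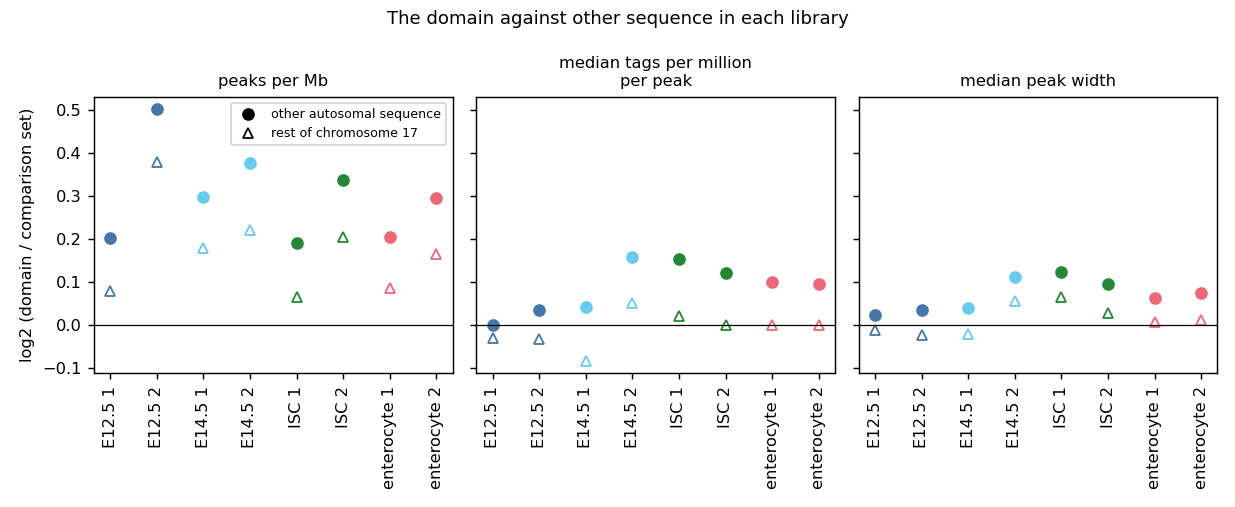
Ratio of the domain to other sequence (log2, vertical axis) for peaks per Mb, median RPM per peak and median peak width, in each of the 8 libraries (horizontal axis, coloured by group). Filled circles set the domain against the other autosomal sequence and open triangles against the rest of chromosome 17. For density all circles and triangles lie above 0, while for tags and width the triangles scatter about 0.

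The share of autosomal peaks that fell in the domain did not separate adult from embryonic libraries. It was 0.165% and 0.183% in ISC, 0.167% and 0.178% in enterocytes, 0.167% and 0.205% at E12.5, and 0.178% and 0.188% at E14.5. The 95% Wilson interval was 0.149 to 0.184% for ISC replicate 1, the lowest, and 0.177 to 0.238% for E12.5 replicate 2, the highest, and such intervals cover counting error only. Adult libraries averaged 0.173% ± 0.00848 and embryonic libraries 0.185% ± 0.0163 (SD, n = 4 each; exact two-sided permutation p = 0.257, smallest possible 0.0286). With lists cut to the 84990 highest-scoring peaks the sign turned, with a difference of 0.00292 percentage points, adult minus embryo.

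Regions were spread unevenly along the complex. In 7 windows of 500 kb from the K end, the numbers of regions were 140, 138, 151, 113, 119, 44 and 92. The window from 1.0 to 1.5 Mb (34900000 to 35399999) had the most, with 27.5% of its bases in regions, and the window from 2.5 to 3.0 Mb (36400000 to 36899999) the fewest, with 4.54%. In that sparse window the libraries had 6 and 3 regions called at E12.5, 29 and 20 at E14.5, 10 and 21 in ISC and 10 and 19 in enterocytes. In the densest window they had 35 and 36 at E12.5, 99 and 106 at E14.5, 61 and 95 in ISC and 49 and 81 in enterocytes. Every library thus had fewer called regions in the sparse window than in the dense one, in all groups. The windows were picked by the merged regions of these same lists, so this is a description and not a test. Near-identical gene copies are a feature of the distal complex, and the part of tag placement in the low count was not tested. At 100 kb the fullest windows, at 0.9 to 1.0 Mb and 1.4 to 1.5 Mb, held 38 regions each and the emptiest, at 2.7 to 2.8 and 2.8 to 2.9 Mb, 6 each.

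Regions called in every library were most numerous in the 500 kb window at the K end. The first 500 kb (33900000 to 34399999) held 17 of the 52 regions called in all 8 libraries, against 5, 11, 8, 7, 1 and 3 in the windows that followed. Within it, the windows at 0.1 to 0.2 Mb and 0.2 to 0.3 Mb held 7 and 5 of them, and the outermost, at 0 to 0.1 Mb, held 0. Called in both E12.5 libraries were 20 regions (14.3%) of the first window and 6 (4.35%) of the second. For E14.5 these numbers were 72 (51.4%) and 57 (41.3%), for ISC 47 (33.6%) and 48 (34.8%), and for enterocytes 51 (36.4%) and 36 (26.1%). The second window thus held fewer such regions than the first at E12.5, at E14.5 and in enterocytes, and about as many in ISC, as a description with no test.

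**Figure D2:**
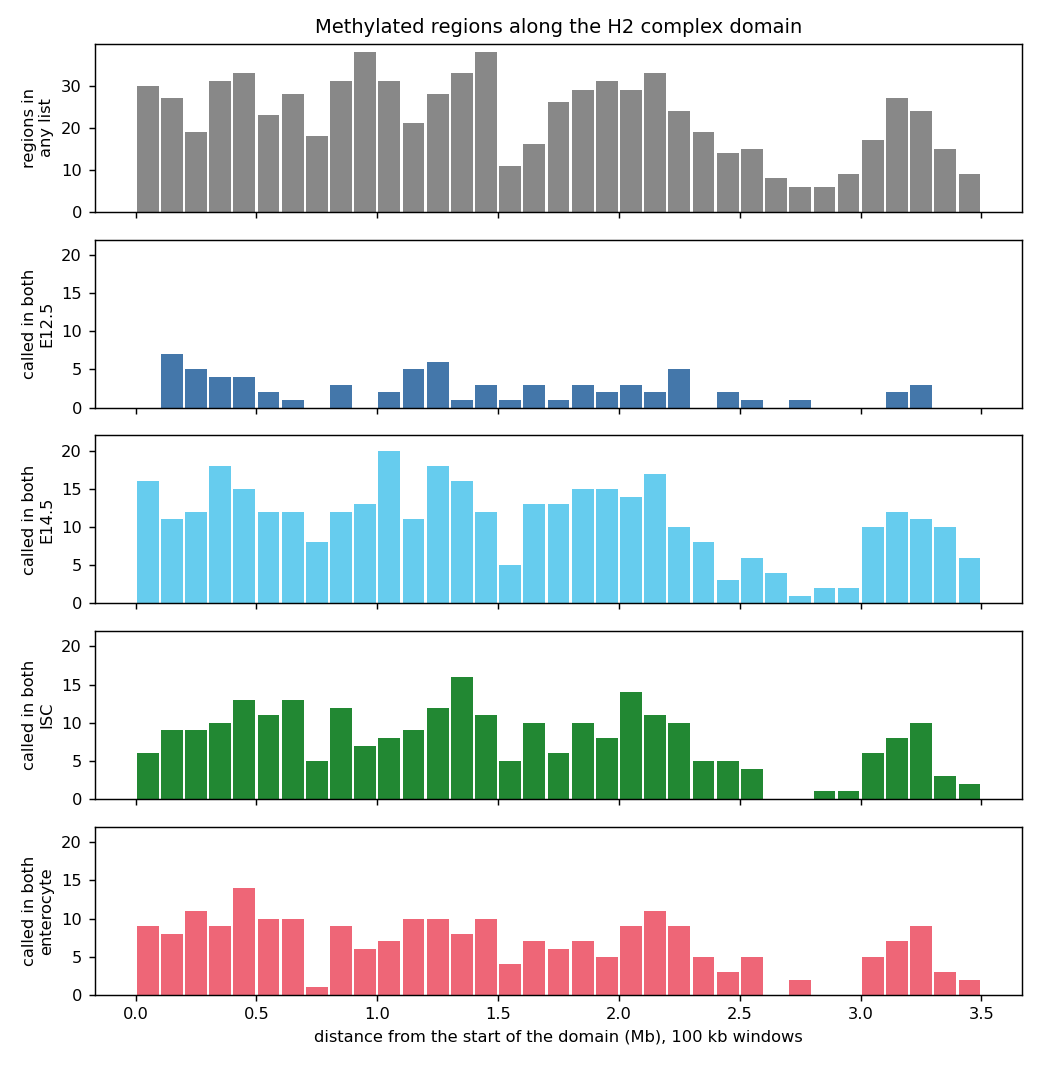
Number of regions per 100 kb window (vertical axes) against distance from the start of the domain in Mb (horizontal axis), for all 797 regions at the top and, below, for regions called in both replicates of each group. All groups thin out between 2.6 and 3.0 Mb, and E12.5 has its tallest bar, 7 regions, at 0.1 to 0.2 Mb.

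Of the 797 regions, both replicates had a peak at 72 for E12.5, 383 for E14.5, 270 for ISC and 231 for enterocytes. As shares of regions called in either replicate these were 27.9%, 57.9%, 50.9% and 53.1%, against 26.3%, 52.9%, 47.7% and 51.1% over all regions. On 162 regions the replicates of every group matched. Among these, 52 (32.1%) were called in all groups and another 52 (32.1%) in all groups but E12.5, against 29.4% and 31.3% over all matched regions. A further 26 (16.0%, against 20.9%) were called at E14.5 alone and 11 (6.79%, against 6.66%) at E14.5 and in ISC. ISC alone had 7 (4.32%, against 3.76%), and both adult groups without the embryonic ones had 7 (4.32%, against 2.29%). None was called in enterocytes alone or at E12.5 alone, patterns that made up 1.21% and 0.751% of the matched regions of the whole genome.

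E14.5 was set against E12.5 to follow the complex through early development of the gut. Peaks in both E14.5 libraries and in no E12.5 library were found at 197 domain regions, 24.7%, where 23.9% of all regions had that pattern. The reverse was found at 2 regions, 0.251%, where the background was 0.276%. Both shares lay near those of the genome, and the E14.5 lists, at 317772 and 338262 peaks, were the longest of all, so list length and stage cannot be told apart in these counts. With lists cut to equal length, which left 396 domain regions, the counts were 20 for E14.5 (5.05%, against 5.39% of all regions) and 12 for E12.5 (3.03%, against 3.58%). At the 197 regions an E14.5 library had between 12 and 330 tags, with a median of 30.5, and 30 of them had an E12.5 peak within 1 kb.

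The 3 of these that ranked highest within the E14.5 lists lay beyond 2.0 Mb from the start. The first, from 37157136 to 37157916 and 3258 kb from the start, had 56 and 49 E14.5 tags and no E12.5 peak. It also had 24 and 50 ISC tags and 45 and 57 enterocyte tags, and the nearest E12.5 peak lay 9852 bp away. The second, from 35916879 to 35917638, had 53 and 54 E14.5 tags, and an E12.5 peak lay 5427 bp from it. The third, from 36066787 to 36067894, had 65 and 70 E14.5 tags and an E12.5 peak of 45 tags only 378 bp away. All 3 had a peak in both ISC libraries. Of the 2 regions called at E12.5 and not at E14.5, one spanned 36364529 to 36364991, with 32 and 29 E12.5 tags, no peak at E14.5 or in ISC, and a peak of 27 tags in enterocyte replicate 2. The other, at 36621122 to 36622182, had a fold of 7.36 and 9.26 over local background at E12.5, the authors' value, and was among the few peaks of the sparse window. It had peaks of 29 tags in ISC replicate 1 and of 76 and 52 tags in enterocytes, so the lack of a peak at E14.5 did not extend to all adult libraries.

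ISC were set against E14.5 to place adult stem cells beside the fetal epithelium. Peaks in both ISC libraries and no E14.5 library were found at 21 domain regions, 2.63%, with a background of 1.91%. Peaks at E14.5 and not in ISC were found at 61, 7.65%, with a background of 6.69%. With lists cut to equal length, which left 396 domain regions, the order of these counts turned. They were 21 for ISC (5.30%, against 3.24% of all regions) and 12 for E14.5 (3.03%, against 2.98%). Among regions on which the replicates of a group matched in having a peak, those of the full lists were 7.78% in ISC and 15.9% at E14.5, against 6.08% and 15.3% over the genome. The highest-ranked ISC region, at 36367911 to 36368661 and 2468 kb from the start, had no embryonic peak, 39 and 66 ISC tags, and 84 and 68 enterocyte tags. Its fold was 9.05 and 13.3 in ISC, and the nearest E14.5 peak lay 4118 bp away. The next, at 34709047 to 34710199, had 43 and 53 ISC tags, 60 and 84 enterocyte tags and again no embryonic peak. The third, at 34906881 to 34907437, held 29 and 44 tags in ISC and was called in no other library, with an E14.5 peak 470 bp away and a peak of 33 tags in enterocyte replicate 1 at 393 bp. The first 2 of these were thus called in every adult library, and the third in the ISC libraries, with peaks of other groups close by.

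Of the 61 regions, the one at 36987491 to 36988065 held 47 and 52 tags at E14.5, a peak of 36 tags in E12.5 replicate 2 and none in any adult library. That at 34355327 to 34356016, 456 kb from the start, held 60 and 51 tags at E14.5 and 56 and 43 at E12.5. That at 37021761 to 37023232 held 48 and 28 tags at E14.5 and 115 and 50 at E12.5. None of the 3 had an adult peak, and the nearest ISC peaks lay 973, 912 and 14222 bp away.

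Enterocytes were set against ISC to follow the complex through differentiation, though their sort used markers shared with the embryonic epithelium. Peaks in both enterocyte libraries and no ISC library were found at 10 domain regions, 1.25%, with a background of 1.28%. Peaks in ISC and not in enterocytes were found at 29, 3.64%, with a background of 3.85%. With lists cut to equal length, which left 396 domain regions, the order turned. The counts were 9 for enterocytes (2.27%, against 2.88% of all regions) and 8 for ISC (2.02%, against 2.31%). With the full lists neither share stood out from the genome. Most of those peaks were weak, with a median of 43.5 tags for the enterocyte regions and 26 for the ISC regions. The highest-ranked enterocyte region by score, at 35389367 to 35391080, held 112 and 106 tags in enterocytes and 43 and 31 at E14.5, with no peak in ISC. The region at 37004951 to 37005661 held 45 and 38 enterocyte tags and also had peaks in E12.5 replicate 2 and in both E14.5 libraries. The region at 34311213 to 34312023 held 42 and 46 enterocyte tags and also had peaks in E12.5 replicate 1 and E14.5 replicate 2. Of the ISC regions, that at 35995234 to 35996046 held 31 and 53 tags in ISC and 24 in E14.5 replicate 1, and that at 34433822 to 34434332 held 29 and 24 tags in ISC and 33 in the first replicate of each embryonic stage. The remaining one was the region at 34906881, which has the enterocyte peak at 393 bp.

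The 4 adult libraries together were also set against the 4 embryonic ones. Adult peaks in every library without an embryonic peak were found at 7 domain regions, 0.878%, with a background of 0.402%. The reverse was found at 3, 0.376%, with a background of 0.139%. The adult regions were 3.89% of the 180 domain regions called in all adult libraries, against 2.03% over the genome, and the embryonic regions 4.55% of 66, against 2.04%. These shares rest on 7 and 3 regions, and no test of them was made. The 2 highest-ranked adult regions were those at 36367911 and 34709047, and the third, at 35210674 to 35211429, had 28 and 38 ISC tags and 52 and 43 enterocyte tags. The embryonic regions were those at 34355327 and 37021761 and a region at 34327920 to 34328898, which held 77 and 57 tags at E12.5 and 74 and 57 at E14.5. ISC replicate 2 had a peak with 76 tags at a distance of 156 bp from that region, and the nearest adult peak to the region at 37021761 lay 7764 bp away.

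**Figure D3:**
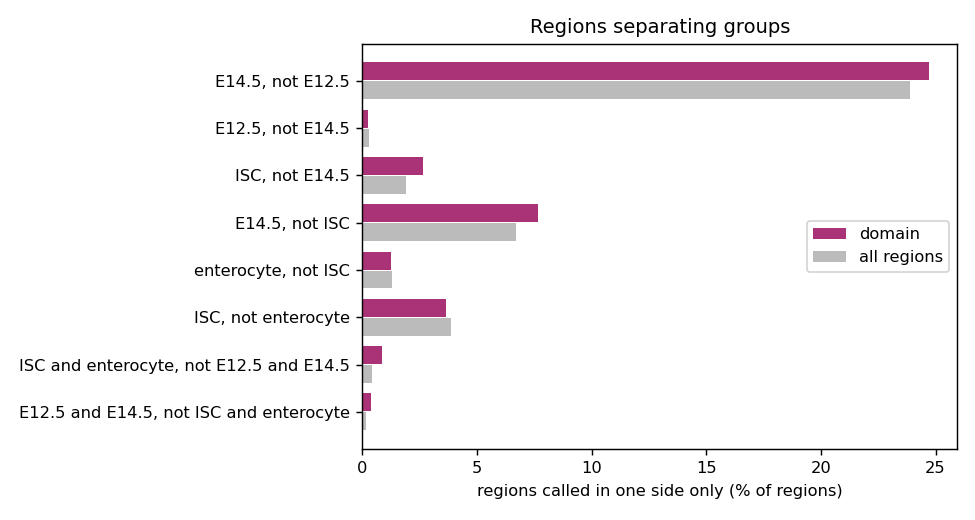
Percent of regions (horizontal axis) with a peak in every library of the group named first and in no library of the group named second (rows), for the 797 domain regions (purple, above) and all 475861 regions (grey, below). In the first row the bars reach 24.7% and 23.9%, and in the adult row, where counts are small, 0.878% and 0.402%.

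Tags could be compared over replicates at the 52 domain regions called in all 8 libraries, where every library has a tag count. They were summed over each library's own peaks and not over the same bases. These peaks covered a median of 46.1% of the region in E12.5 replicate 2 and 99.0% in enterocyte replicate 1. The highest by mean level was the region at 36017572 to 36021219, 2119 kb from the start. It had 3.89 and 0.884 RPM at E12.5, 8.97 and 9.37 at E14.5, 6.69 and 9.64 in ISC and 8.72 and 9.76 in enterocytes. The region at 35041892 to 35045974, 1144 kb from the start, had 1.27 and 1.71 RPM at E12.5, 9.11 and 7.85 at E14.5, 4.84 and 12.3 in ISC and 7.87 and 10.4 in enterocytes. The longest region, of 6778 bp at 34068012 to 34074789, had 2.28 and 1.71 RPM at E12.5, 7.17 and 10.0 at E14.5, 2.93 and 11.8 in ISC and 13.0 and 6.39 in enterocytes. In all 3 the E12.5 libraries were the lowest, as they were in median RPM over all 24563 regions called in every library (1.104 and 0.956 at E12.5, against 1.69 to 2.29 in the other 6). At the longest region the replicates of ISC and of enterocytes differed widely. The called width there was 1062 and 4048 bp in ISC and 6778 and 2713 bp in enterocytes. The region at 34746379 to 34750243, the third by length, had 2.10 and 2.67 RPM at E12.5, 3.76 and 4.27 at E14.5, 4.13 and 5.41 in ISC and 6.58 and 8.89 in enterocytes. There the enterocyte libraries lay above all others and the E12.5 libraries below all others, with overlap of ISC and E14.5. On the TMM scale used for the test below, its log2 fold change for E14.5 over E12.5 was -0.07 ± 0.28 (SE; edgeR, adjusted p = 0.930), so the low E12.5 level was seen on the RPM scale only. The first 3 stood at percentiles 99.4, 99.3 and 99.3 of mean level among the 24563 regions of the genome called in all libraries.

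**Figure D4:**
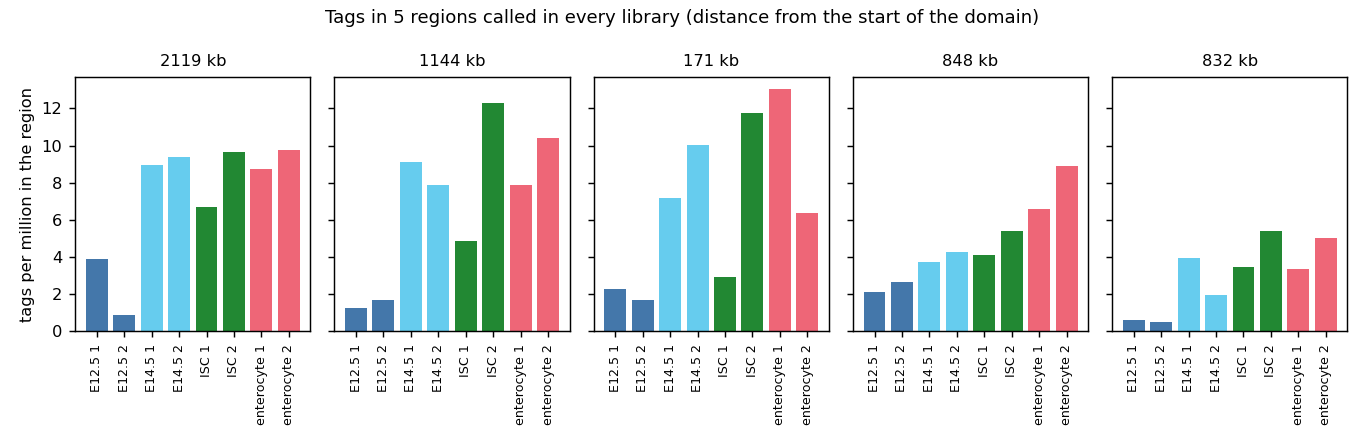
RPM (vertical axis) in each of the 8 libraries (horizontal axis, coloured by group) at 5 domain regions called in every library, titled by distance from the start of the domain. The E12.5 bars are the shortest in each panel, and the last panel is the region whose adult and embryonic tags differed past the threshold.

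Tags were tested over replicates with edgeR's quasi-likelihood test across the 24563 regions, with TMM scaling to the bulk of these regions and Benjamini-Hochberg adjustment over all of them. For E14.5 against E12.5 the domain regions had a median log2 fold change of 0.35, against -0.02 for all regions and -0.02 for the 1067 regions on the rest of chromosome 17. Of the 52, 33 were positive (63.5%, against 48.6% of all regions), with values from -1.08 to 1.67. None passed an adjusted p of 0.05, where 0.273% of all regions were called higher and 0.114% lower. At an unadjusted p under 0.05 there were 12, of which 10 were higher at E14.5. The share of all regions under that p was not counted, here or in the comparisons below, so such counts have no background. DESeq2 called 2, those at 34730880 (adjusted p = 0.00814) and 35041892 (adjusted p = 0.00161), named after their values were seen. DESeq2 called 1.35% of all regions higher and 0.147% lower. The region at 35041892 to 35045974 came closest, with a log2 fold change of 1.67 ± 0.34 (SE; adjusted p = 0.0547).

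The median differed between longer and shorter regions, and with called width as an offset. The 26 domain regions at or above the domain's median length had a median log2 fold change of 0.61 and the 26 shorter ones -0.08, and over the genome the medians were 0.24 for the 7642 other regions at least that long and -0.11 for the 16869 shorter ones. With the log of the called width as an offset the domain median was 0.03. Tags were summed over the called peaks, so a change in tags and one in width come together. This offset, here and below, therefore cannot separate them. At the 52 regions the median called width was 931 and 706.5 bp at E14.5, against 715 and 594 bp at E12.5. The part of called width in the result was not tested. With library totals in place of TMM the median of all regions moved to 0.81 and that of the domain to 1.15, and 30 of the 52 domain regions were called, all higher at E14.5, where 36.7% of all regions were called higher and 0.0977% lower.

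For ISC against E14.5 the domain median was -0.00 with 26 regions on either side of 0, for enterocytes against ISC it was 0.03 with 27 positive and 25 negative, and none of the 52 passed an adjusted p of 0.05 by edgeR in either comparison, where 0% of all regions did, or by DESeq2. For ISC against E14.5, DESeq2 called 0.0366% of all regions higher and 0.00814% lower. At an unadjusted p under 0.05 there was 1 domain region in each. Testing all regions called in the 4 libraries compared raised the domain regions to 214 for ISC against E14.5 and 180 for enterocytes against ISC, with no call and with 16 and 9 at an unadjusted p under 0.05.

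For adult against embryo, 1 domain region passed, where 0.159% of all regions were called higher and 0.0489% lower. It lay at 34730880 to 34733154, 832 kb from the start. It had 3.45 and 5.41 RPM in ISC and 3.37 and 5.03 in enterocytes, against 0.616 and 0.505 at E12.5 and 3.93 and 1.95 at E14.5. The adult libraries averaged 4.32 ± 1.06 RPM and the embryonic libraries 1.75 ± 1.60 (SD, n = 4 each), and E14.5 replicate 1 lay above the lower adult replicates, so the groups overlapped. The embryonic SD spans both stages, with means of 0.560 RPM at E12.5 and 2.94 at E14.5. The region's log2 fold change for adult over embryo was 1.25 ± 0.22 (SE; edgeR, adjusted p = 0.0488). For E14.5 over E12.5 it was 1.53 ± 0.33 (SE; edgeR, adjusted p = 0.0647), and for ISC over E14.5 0.54 ± 0.30 (adjusted p = 0.891). For adult against embryo DESeq2 also called the region alone in the domain (adjusted p = 0.00105), where it called 0.892% of all regions higher and 0.183% lower. With library totals edgeR called 17 domain regions, all higher, where 15% of all regions were called higher and 0.0366% lower. By edgeR the region's log2 fold change was 1.099 to 1.454 when each library was left out. That leaves 1 library in a group, so calls there cannot tell an unstable region from a weaker test. With called width as an offset the region's log2 fold change was 0.19 (edgeR, adjusted p = 0.850). The called width was 1717 and 2003 bp in ISC and 1974 and 2275 bp in enterocytes, against 487 and 358 bp at E12.5 and 1806 and 751 bp at E14.5. Over the 52 regions the median log2 fold change was 0.15, against -0.01 for all regions, with 31 positive (59.6%, against 48.7% of all regions). At an unadjusted p under 0.05 there were 12, of which 11 were higher in adults, with no share of all regions counted.

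**Figure D5:**
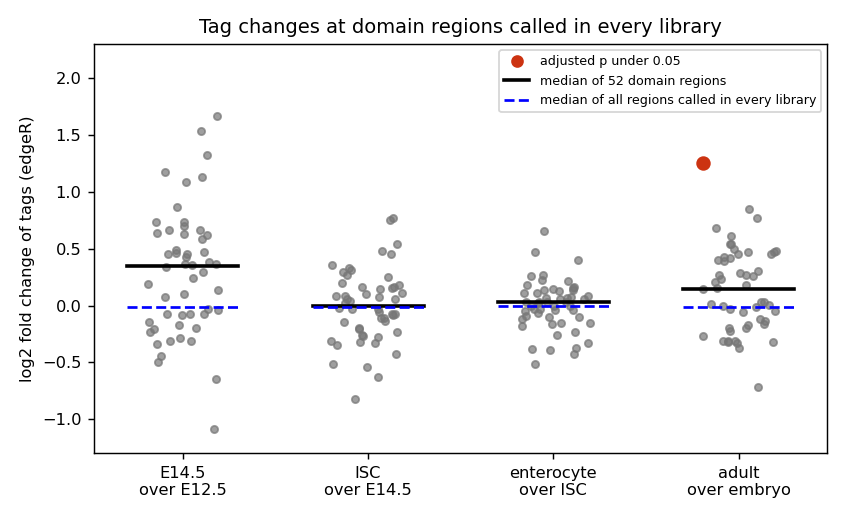
Log2 fold change of tags by edgeR (vertical axis) for the 52 domain regions called in every library (points), in 4 comparisons (horizontal axis). The black line is the domain median and the dashed line the median of 24563 regions, 0.35 and -0.02 for E14.5 over E12.5, and the large red point is the region that passed an adjusted p of 0.05.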

How the data were processed

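Peak lists of 8 MBD libraries were used as the authors deposited them. The build was mm9 and the tools named are Bowtie 1.1.2, SAMtools 1.2 and bcl2fastq 1.8.4, per the submitters' processing notes. Per the labels' protocols, 1 µg of DNA was sheared to 150 to 250 bp before MethylMiner enrichment. Per the file headers, MACS 1.4.2 called peaks without a control at a p cutoff of 1e-05. The deposited tags are raw counts per peak, the score is the caller's log-scaled p and the fold is a ratio to local background of the same library, both the authors' values. A missing peak means only that tags did not pass the cutoff, and peaks give no percent methylation. RPM used the header totals. Autosomal length was the span from the first to the last peak of each autosome.

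Presence meant a peak in every library of a group and in none of the other. Tags summed per region were tested with edgeR 4.0.16 (DESeq2 1.42.0 as the alternative) in 1 fit of all libraries, at regions called in all 8, which leaves out those that differ most. The code was tested on simulated data. With 2 libraries against 2 the smallest exact permutation p is 0.333, so group pairs had no other test. Named regions were the 3 per direction with the highest lower percentile of score over the group, up to 5 past the edgeR threshold, the longest runs and gaps, the densest and sparsest windows, and the 3 highest and 3 longest of the 52. The domain, lists and rules were chosen with earlier results of these data known. The H2 gene lists of the design were not analysed, for want of an mm9 annotation, and no peak sequence was read for the same reason.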

Additional observations from a re-analysis of the deposited data

How the results depend on the processing

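Presence counts depended on the lists. Each count of domain regions called in 1 group only is given with its share and, after it, the share of all regions, except in the list by library. With lists of equal length (84990 peaks) it was 20 for E14.5 (5.05%, 5.39%) and 12 for E12.5 (3.03%, 3.58%), 21 for ISC (5.30%, 3.24%) and 12 for E14.5 (3.03%, 2.98%), 9 for enterocytes (2.27%, 2.88%) and 8 for ISC (2.02%, 2.31%), and 3 for adult (0.758%, 0.638%) and 0 for embryo (0%, 0.223%). The order of ISC with E14.5 and of enterocytes with ISC thus turned. With the 50% of each list scoring higher it was 99 for E14.5 against E12.5 (20.6%, 20.1%), 11 for ISC (2.29%, 2.16%) and 31 for E14.5 (6.46%, 6.59%), 6 for enterocytes against ISC (1.25%, 1.53%) and 4 for adult (0.833%, 0.469%). Under a rule of 50% coverage by peaks it was 81 for E14.5 (10.2%, 10.2%) and 6 for E12.5 (0.753%, 0.674%), 35 for ISC (4.39%, 4.20%) and 36 for E14.5 (4.52%, 3.89%), 26 for enterocytes (3.26%, 3.18%) and 25 for ISC (3.14%, 3.73%), where the order turned, and 14 for adult (1.76%, 1.25%). Leaving out each replicate gave 250 to 326 for E14.5 (31.4 to 40.9%, 29.4 to 41.0%) and 3 to 18 for E12.5 (0.376 to 2.26%, 0.573 to 2.61%). It gave 33 to 77 for ISC (4.14 to 9.66%, 4.33 to 8.03%) and 81 to 151 for E14.5 (10.2 to 18.9%, 9.53 to 18.1%). For enterocytes it gave 17 to 54 (2.13 to 6.78%, 2.48 to 6.90%) and for ISC 39 to 133 (4.89 to 16.7%, 5.79 to 15.2%). For adult it gave 7 to 15 (0.878 to 1.88%, 0.431 to 1.12%) and for embryo 3 to 10 (0.376 to 1.25%, 0.156 to 0.505%). The rule is looser with 1 library left in a group. Counts by library follow, and their shares lay inside these ranges. Without E12.5 replicate 1 or 2 the E12.5 count was 18 or 16 and the embryo count 10 or 9. Without E14.5 replicate 1 or 2 the E14.5 counts were 326 or 306 against E12.5 and 151 or 132 against ISC, the ISC count was 44 or 33 and the adult count 15 or 11. Without E14.5 replicate 2 the E12.5 count was 5, and without replicate 1 the embryo count was 5. Without ISC replicate 1 or 2 the ISC count was 77 or 35 against E14.5 and 133 or 57 against enterocytes, and the enterocyte count 17 or 44. Without ISC replicate 2 the E14.5 count was 149. Without enterocyte replicate 1 or 2 the enterocyte count was 54 or 22, and without replicate 2 the ISC count was 80. For tags, library totals called 30 domain regions for E14.5 against E12.5 and 17 for adult against embryo, all higher, where 36.7% and 15% of all regions were called higher, and DESeq2 called 2 for E14.5 against E12.5. Without each replicate, the region of the single adult call had a log2 fold change of 1.099 to 1.454 by edgeR. A lone sample was there assumed to vary like the other groups. The single adult call became 0 with called width as an offset and 0 with a mean of at least 50 tags. The replicate block also gave 0, and it took the calls over all regions from 95 to 0 for E14.5 against E12.5 and from 51 to 26 for adult against embryo. The labels give the numbers no shared source, and deviations of same-numbered libraries had correlations of -0.017 to 0.0668, so the numbers were not taken to pair samples. Domain density kept its sign and call without each replicate (mean log2 ratio 0.27 to 0.32), as did tags (0.08 to 0.10) and width (0.06 to 0.08). Against the rest of chromosome 17 tags turned to -0.0093 and width fell short at 0.014. The adult minus embryo share of peaks was -0.0171 to -0.00435 percentage points without each replicate, and turned to 0.00292 with equal lists and 0.00183 with the higher-scoring 50%. Where not stated otherwise, the cause was not tested. The weakest peak in the domain held 12 tags, and what depth limits was not tested.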

Other observations

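The longest stretch of the H2 domain with no region in any list ran from 36709605 to 36765895 (56.3 kb), and the next from 36515029 to 36558175 (43.1 kb) and from 36673503 to 36709321 (35.8 kb). All 3 lay in the sparse window from 2.5 to 3.0 Mb, and the median spacing of regions over the whole domain was 2197 bp. Of 796 spacings in the domain, 12 exceeded 20 kb.

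Runs of regions that a group lacked were short among the later groups. The longest run of consecutive regions called in both ISC libraries with no E14.5 peak was 2, and with no enterocyte peak 2. Among regions called at E14.5 it was 3 with no ISC peak and 4 with no enterocyte peak. Among regions called in enterocytes it was 1 with no E14.5 peak and 1 with no ISC peak. E12.5 lacked longer runs. It had no peak at 10 consecutive regions called at E14.5, from 35576635 to 35667699 (91.1 kb), with 16 to 166 E14.5 tags each, and 8 of these had an ISC peak. It also lacked 7 consecutive regions called in ISC, from 34592063 to 34682923 (90.9 kb), and 5 called in enterocytes, from 34429984 to 34480938 (51.0 kb). All runs were counted only among regions called in both libraries of the group named, so other regions in between were passed over. These stretches were therefore not free of E12.5 peaks. The region at 34433822, inside the enterocyte stretch, had a peak of 33 tags in E12.5 replicate 1. Of the domain regions called in both E14.5 libraries, 51.4% had no E12.5 peak, against 54.7% over the genome. Runs outside the domain were not counted, so the lengths have no background. The E12.5 lists were the shortest, and the part of list length in these runs was not tested.

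At the 52 regions called in every library, the summits of the strongest peaks in replicates of a group lay a median of 108.5 to 122.5 bp apart, and the 8 summits of a region spanned a median of 434 bp, against 408 bp over all 24563 such regions.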
